A study of Mus musculus with 7 samples.

Results

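The 10 smooth muscle contractile genes Acta2, Tagln, Myh11, Myl9, Cnn1, Mylk, Lmod1, Smtn, Tpm2 and Cald1 were followed in RNA from the midbrain of adult mice. They were chosen by name, as the proteins of the contractile apparatus of vascular smooth muscle, and each was found among the 32531 gene rows of the files. Earlier results of these data were known when they were chosen. All mice were untreated controls of the Stard8-TRAP ES2342 line, in which regulatory sequence of Stard8 drives Rpl10a, a protein of the large ribosomal subunit, fused to EGFP. Tagged ribosomes were pulled out of the homogenate on beads with antibodies against EGFP, and the RNA on them gave 3 immunopurified (IP) libraries, replicates 1, 2 and 4. RNA that stayed off the beads gave 4 unbound libraries, replicates 1 to 4. The sources used here do not give the age in weeks, the sex or the number of animals per library, so p-values measure only the spread between these libraries, which may be technical. An IP replicate 3 was not analysed here. The series text names neurons as the cells studied.

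Smooth muscle cells wrap arteries and arterioles, and pericytes wrap capillaries. In smooth muscle, calcium bound to calmodulin switches on myosin light chain kinase (Mylk), which phosphorylates the regulatory light chain (Myl9) of smooth muscle myosin (Myh11), and the myosin then pulls on filaments of smooth muscle alpha-actin (Acta2). Pericytes of the middle of the capillary bed are known for little Acta2 and Myh11. Tropomyosin (Tpm2), caldesmon (Cald1), calponin (Cnn1), transgelin (Tagln) and smoothelin (Smtn) sit on those filaments and steady or restrain them. Leiomodin (Lmod1) starts new filaments. Transcription of many of these genes is driven by serum response factor (Srf), with its coactivator myocardin (Myocd), on a short A/T-rich DNA element called the CArG box.

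Libraries held 52052340 to 76114634 counts in genes, and 3 counts in a library were worth 0.0376 to 0.059 CPM (read counts scaled to a common library size with TMM factors). Stard8, the driver gene, measured 388, 440.2 and 227 CPM in IP 1, 2 and 4, against 3.51, 4.35, 4.18 and 4.89 CPM in unbound 1 to 4. Neuron markers were taken as a list, chosen like the other lists with earlier results of these data known. Of its 8 genes, 8 were lower in IP, and their summed level was 3123 to 6894 CPM in IP against 12170.2 to 18809.6 CPM in unbound. The number was 5 leaving out IP 1 and 4 leaving out IP 2. Markers of the cells of vessel walls were higher in IP, as given further on. Ambiguous reads made up 1.43% to 1.63% of IP files and 7.26% to 11.5% of unbound files, and reads outside genes 13.4% to 18.6% of IP files and 11.3% to 12.9% of unbound files. The part of this difference in the members' results was not tested. IP libraries were sequenced in lanes 2 and 5 and unbound libraries in lanes 1 and 3, so lane and group cannot be told apart. The libraries carried 2 index sequences, the first on replicates 1 and 2 and the second on replicates 3 and 4.

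All 10 members were higher in IP than in unbound by edgeR's quasi-likelihood test with Benjamini-Hochberg adjustment over 17654 genes. Of all genes tested, 39.4% were called in either direction, 20.5% higher in IP and 18.9% lower. These shares also stand beside the counts of every other gene list in the text. The members had a median log2 fold change of 4.59, against -0.10 over all genes tested, and ranged from 1.31 for Tpm2 to 7.63 for Myl9. A log2 fold change of at least 5 with a call was met by 3 members, Myl9, Myh11 and Cald1, and by 2.71% of all genes tested. Every IP library lay above every unbound library in all 10 members, which also held for 25.1% of all genes. The members would have passed the low-count filter (0.177 CPM in 3 libraries) on the unbound libraries alone in 10 of 10 cases. Together they took 0.309%, 0.322% and 0.216% of the counts in IP 1, 2 and 4, against 0.00815%, 0.00695%, 0.00881% and 0.00988% in unbound 1 to 4. A fold change here compares RNA on the beads with RNA left off them, not tissues with more or fewer cells. How much RNA was held on the beads without the tag was not tested. Within a fraction, more cells of a type and more RNA per cell cannot be told apart.

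**Figure D1:**
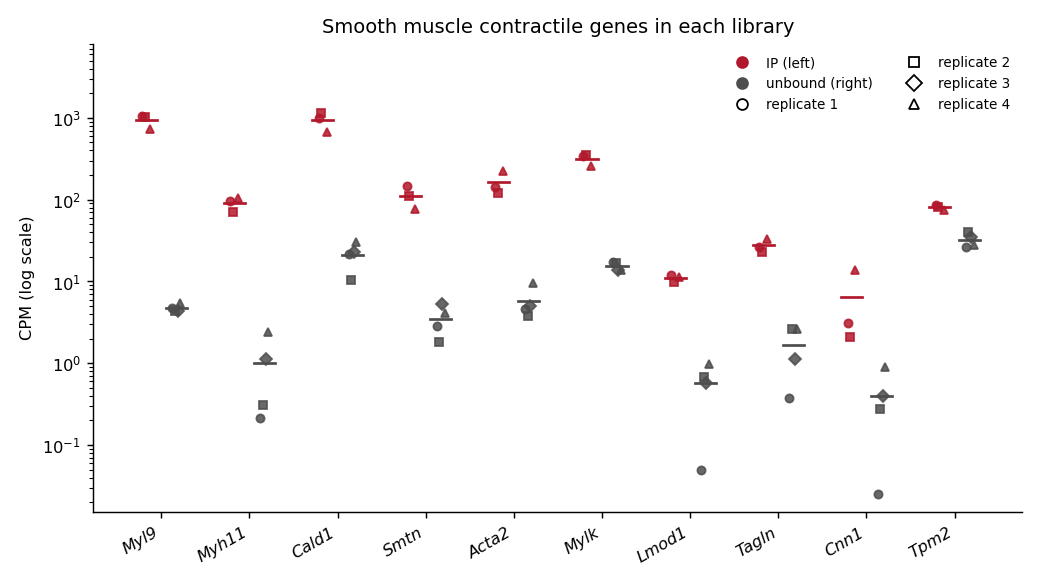
CPM of each member (log scale) in the 3 IP libraries (red, left) and the 4 unbound libraries (grey, right), ordered by log2 fold change, with a bar at each group mean and marker shapes for replicate numbers. No gene's groups overlap, and Tpm2 has the smallest gap, 75.3 to 86.2 CPM in IP against 26.1 to 40.4 CPM in unbound.

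The motor proteins are the myosin chains and the kinase that switches them on. Myl9, the regulatory light chain (chromosome 2, 156775420 to 156781658, plus strand, GRCm38), measured 1058, 1038 and 738 CPM in IP 1, 2 and 4, against 4.70, 4.40, 4.38 and 5.52 CPM in unbound 1 to 4. Unbound libraries were close to each other and IP 4 was the lowest of the IP libraries. The mean was 944 ± 179 CPM in IP and 4.75 ± 0.535 CPM in unbound (SD, n = 3 and 4), a log2 fold change of 7.63 ± 0.30 (SE, adjusted p = 3.43e-07). Myh11, the smooth muscle myosin heavy chain (chromosome 16, 14194535 to 14291372, minus strand), measured 97.1, 70.0 and 105 CPM in IP 1, 2 and 4. Its unbound values were uneven, 0.213, 0.309, 1.12 and 2.38 CPM in unbound 1 to 4, from 17 to 135 counts. The log2 fold change of Myh11 was 6.51 ± 0.73 (adjusted p = 7.08e-05), and 7.40 without unbound 4. Mylk, the kinase that phosphorylates Myl9 (chromosome 16, 34745210 to 35002420, plus strand), had 341, 347 and 259 CPM in IP 1, 2 and 4, against 17.2, 16.6, 13.8 and 13.8 CPM in unbound 1 to 4. Mylk had the smallest standard error of the members but Tpm2, with a log2 fold change of 4.36 ± 0.24 (adjusted p = 1.15e-06).

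Smooth muscle alpha-actin, Acta2, the main thin-filament protein of these cells (chromosome 19, 34241090 to 34255590, minus strand), measured 142, 119.8 and 226 CPM in IP 1, 2 and 4, against 4.67, 3.75, 5.05 and 9.71 CPM in unbound 1 to 4. The fourth replicate was the highest in both groups. Its log2 fold change was 4.81 ± 0.39 (adjusted p = 6.91e-06). Lmod1, a leiomodin that starts new actin filaments in smooth muscle (chromosome 1, 135324807 to 135368065, plus strand), had 11.9, 9.78 and 11.2 CPM in IP 1, 2 and 4, against 0.0501, 0.687, 0.569 and 0.971 CPM in unbound 1 to 4. Unbound 1 held 4 counts of Lmod1, near the floor. The log2 fold change of Lmod1 was 4.28 ± 0.70 (adjusted p = 0.000854).

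Among the proteins that bind the actin filament, Cald1 (chromosome 6, 34598500 to 34775473, plus strand) measured 1005, 1149 and 676 CPM in IP 1, 2 and 4 against 21.6, 10.3, 22.7 and 30.6 CPM in unbound 1 to 4. Caldesmon also exists as a shorter form in non-muscle cells, and the counts do not separate the forms. Its log2 fold change was 5.47 ± 0.40 (adjusted p = 4.12e-06). Smtn (chromosome 11, 3517523 to 3540612, minus strand) had 145, 110.3 and 76.9 CPM in IP 1, 2 and 4, against 2.82, 1.82, 5.26 and 4.06 CPM in unbound 1 to 4, a log2 fold change of 4.99 ± 0.39 (adjusted p = 6.04e-06). IP 4 was the lowest IP library for both genes. In GENCODE M21 exons of Gm11946 lie opposite 16.3% of the exon length of Smtn, so part of its reads is uncertain in the same way as for Tagln.

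Tagln, transgelin or SM22 (chromosome 9, 45929619 to 45936058, minus strand), measured 26.7, 22.9 and 33.4 CPM in IP 1, 2 and 4, against 0.376, 2.59, 1.14 and 2.59 CPM in unbound 1 to 4. Its log2 fold change was 4.05 ± 0.56 (adjusted p = 0.000299). In GENCODE M21 its exons overlap those of Gm48529 over 62.4% and of Pcsk7 over 5.43% of their length, both on the opposite strand, and without a stated strand setting reads of these genes cannot be told apart from those of Tagln. Pcsk7 itself had 13.3 CPM in IP and 9.57 CPM in unbound and did not pass the threshold (log2 fold change 0.47, adjusted p = 0.177).

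Cnn1, calponin (chromosome 9, 22099216 to 22109630, plus strand), restrains the myosin ATPase and had 3.12, 2.11 and 14 CPM in IP 1, 2 and 4, against 0.0251, 0.275, 0.399 and 0.9 CPM in unbound 1 to 4. IP 4 alone held 710 counts, against 234 and 121 in IP 1 and 2, and unbound 1 held 2. The log2 fold change was 4.01 ± 0.97 (adjusted p = 0.00811). Without IP 4 it was 2.72 (adjusted p = 0.0622), so the call on Cnn1 rests on that library. Leaving out unbound 4 gave 4.8 (adjusted p = 0.00819).

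Tpm2, the beta chain of tropomyosin (chromosome 4, 43514711 to 43523765, minus strand), stood apart at the low end. It measured 86.2, 80.7 and 75.3 CPM in IP 1, 2 and 4, against 26.1, 40.4, 35.4 and 28.1 CPM in unbound 1 to 4. Its groups were closer to each other than those of any other member. The log2 fold change was 1.31 ± 0.22 (adjusted p = 0.0011).

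Within the first index sequence (2 IP and 2 unbound libraries) 9 of 10 members were called higher, against 12.4% of all genes tested there. The exception was Cnn1, at a log2 fold change of 4.14 (adjusted p = 0.0724). Within the second (1 IP and 2 unbound libraries, where the spread of the IP side is taken from the unbound side) 10 of 10 were called, against 21.4% of all genes. The member whose value moved most between the index sequences was Myh11, at 8.33 in the first and 5.92 in the second on the log2 scale. Smtn had 5.78 and 4.06, and Cald1 6.08 and 4.68, in the same order.

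Levels of different genes were set side by side per kilobase of annotated exon (CPM per kb). In IP the order was Myl9 at 813 ± 154, Cald1 at 78.4 ± 20.1, Acta2 at 74.0 ± 25.4, Mylk at 28.0 ± 4.39, Tpm2 at 27.8 ± 1.87, Smtn at 25.3 ± 7.80, Tagln at 13.9 ± 2.69, Myh11 at 11.9 ± 2.42, Lmod1 at 2.78 ± 0.274 and Cnn1 at 2.34 ± 2.40 CPM per kb (SD, n = 3). Myl9 stood clear of Cald1, whose highest IP library had 95.4 CPM per kb against 635 in the lowest for Myl9. The libraries of Cald1 and Acta2 overlapped, as did those of Mylk, Tpm2 and Smtn, those of Tagln and Myh11, and those of Lmod1 and Cnn1. Levels of Tagln and Smtn are uncertain through the exon overlaps given above. In unbound the order was led by Tpm2 at 11.2 ± 2.28 CPM per kb, above Myl9 at 4.09 ± 0.461 and Acta2 at 2.64 ± 1.21 CPM per kb (SD, n = 4). Only Tpm2 and Myl9, and Smtn and Cnn1, were neighbours in that order whose unbound libraries did not overlap. Taking the longest transcript as the length raised Cald1 to 198 CPM per kb in IP and 4.45 CPM per kb in unbound. The IP order stayed as it was, while in unbound Cald1 came second, ahead of Myl9 at 4.21 and Acta2 at 2.85 CPM per kb.

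The smooth muscle form of each protein was compared with its paralogs, the other members of its protein family that other cells use. Family shares below use the length of all annotated exons and depend on that choice. By the longest transcript, Myh9 had 27.1 CPM per kb in IP instead of 15.6, and Myh11 13.9 instead of 11.9. Of 30 listed paralogs 25 were tested, 15 were higher in IP and 3 were lower, with a median log2 fold change of 1.19. The shares over all genes tested were 20.5% higher and 18.9% lower. The lower count was 5 without IP 4 or without unbound 2, where Myh10 (adjusted p = 0.0202 and 0.0179) and Tmod2 (adjusted p = 0.0471 and 0.00666) were called as well.

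Among the actins, cytoplasmic beta-actin, Actb, the highest per kb, had 2916, 2630.1 and 2812 CPM in IP 1, 2 and 4, against 1329.9, 1188, 1194 and 915 CPM in unbound 1 to 4, and rose by 1.27 ± 0.24 on the log2 scale (adjusted p = 0.0023). No IP library overlapped an unbound one, and within the first index sequence the value was 1.14 (adjusted p = 0.053). Its partner Actg1 had 0.66 ± 0.29 (adjusted p = 0.0927), and 37.4% of its 50-base words recur in other transcripts. Actg2, the gamma-actin of visceral smooth muscle, was low throughout, at 0.12, 0.697 and 2.61 CPM in IP 1, 2 and 4 against 0.0172 to 0.194 CPM in unbound. It was called at 3.73 ± 1.18 (adjusted p = 0.028), but lost the call without IP 4 (2.25, adjusted p = 0.205), IP 2 (adjusted p = 0.0543), unbound 2 (adjusted p = 0.0511) or unbound 3 (adjusted p = 0.0702). The cardiac actin Actc1 had 2.90 ± 1.33 (adjusted p = 0.106, and 0.0246 without unbound 2) and the skeletal actin Acta1 had -1.29 ± 0.80 (adjusted p = 0.226). Acta2 made up 5.34%, 5.01% and 8.43% of the summed level per kb of the 6 actins in IP 1, 2 and 4, against 0.409%, 0.353%, 0.461% and 1.15% in unbound 1 to 4.

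In the myosin heavy chains the non-muscle form Myh9 had 204, 185 and 216 CPM in IP 1, 2 and 4, against 15, 6.75, 14.8 and 15.3 CPM in unbound 1 to 4, a rise of 3.96 ± 0.31 on the log2 scale (adjusted p = 5.81e-06). Myh10, a non-muscle form known from neurons, had -0.98 ± 0.44 (adjusted p = 0.0982). Myh14 fell by 1.28 (adjusted p = 0.0235) and lost that call without IP 1, IP 2, unbound 3 or unbound 4 (adjusted p = 0.102, 0.102, 0.0656 and 0.0574). Myh11 made up 31.3% ± 4.32 of the 4 heavy chains per kb in IP and 0.54% ± 0.407 in unbound. Of the regulatory light chains, Myl9 made up 69.0% ± 3.16 of the level per kb of Myl9, Myl12a and Myl12b in IP and 3.46% ± 1.46 in unbound (SD, n = 3 and 4). Myl12a, a non-muscle light chain, rose by 3.98 ± 0.34 (adjusted p = 1.1e-05). Myl12b had 1.16 ± 0.35 (adjusted p = 0.0221) and was not called without IP 1, IP 2 or unbound 3 (adjusted p = 0.0661, 0.0594 and 0.0662). Exons of Myl12a and Myl12b overlap on the same strand over 462 bases, and 16.2% of the 50-base words of Myl12a transcripts also occur in Myl12b, so their split is uncertain. Of the essential light chains, Myl6 had 1.08 ± 0.37 (adjusted p = 0.0406), and lost the call without IP 1, IP 2, unbound 1, unbound 3 or unbound 4 (adjusted p = 0.145, 0.0883, 0.0926, 0.102 and 0.102). Myl6b fell by 2.08 (adjusted p = 0.000403).

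For transgelin and calponin a form found outside smooth muscle had the higher fold change, a difference that was not tested. Tagln2 measured 957 ± 163 CPM in IP and 15.1 ± 2.22 CPM in unbound, a log2 fold change of 5.99 ± 0.28 (adjusted p = 4.64e-07) beside 4.05 ± 0.56 for Tagln. The neuronal Tagln3 fell by 1.75 (adjusted p = 0.00587). Cnn2 measured 88.6 ± 25.3 CPM in IP and 2.59 ± 1.33 CPM in unbound, a log2 fold change of 5.10 ± 0.48 (adjusted p = 2.04e-05) beside 4.01 ± 0.97 for Cnn1, and Cnn3 had 1.58 ± 0.22 (adjusted p = 0.000333). Exons of Gm42928 lie opposite 17.7% of the exon length of Cnn3, and 24.0% of its 50-base words recur in other transcripts. Its level, and the calponin shares that use it, are uncertain through this. Tagln was 2.62% ± 0.918 of the transgelins per kb in IP and 0.344% ± 0.262 in unbound. The exon overlaps given above for Tagln make its share uncertain. For Cnn1 the shares of the groups overlapped, at 1.61%, 1.06% and 10.4% in IP 1, 2 and 4 against 0.112%, 0.994%, 1.41% and 3.03% in unbound 1 to 4.

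Tropomyosins lie along the actin filament in every cell. Tpm4, the short non-muscle form, rose by 3.71 ± 0.30 (adjusted p = 7.15e-06), while Tpm1 and Tpm3 had 1.17 ± 0.22 (adjusted p = 0.00213) and 1.19 ± 0.20 (adjusted p = 0.00103), close to the 1.31 ± 0.22 of Tpm2. The share of Tpm2 in the 4 tropomyosins per kb was 5.04%, 4.43% and 6.64% in IP 1, 2 and 4, below its 8.89%, 12.2%, 12.8% and 9.55% in unbound 1 to 4. Of the 9 families compared it was the one in which every IP share lay below every unbound share. Shared sequence bears on the other forms, since 23.2% of the 50-base words of Tpm3 and 15.7% of those of Tpm4 recur in other transcripts, against 0.0% for Tpm2.

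Of the kinases, Mylk4 was also higher, at 3.79 ± 0.81 (adjusted p = 0.0041, and 4.37 without unbound 4), from 10.2 ± 2.31 CPM in IP and 0.744 ± 0.699 CPM in unbound, and Mylk took 95.3% ± 1.88 of the kinase level per kb in IP and 91.8% ± 6.67 in unbound. Tropomodulins cap actin filaments, and leiomodins are built on their plan. Tmod3, the widely expressed form, rose by 3.12 ± 0.24 (adjusted p = 5.05e-06), while Tmod1 and the neuronal Tmod2 had -0.44 ± 0.31 (adjusted p = 0.291, with exons of Tstd2 opposite 32.6% of its exon length) and -0.87 ± 0.35 (adjusted p = 0.0677). Lmod1 made up 3.96% ± 0.707 of the leiomodins and tropomodulins per kb in IP and 0.192% ± 0.145 in unbound. Smtnl2, a smoothelin-like protein, rose by 2.98 ± 0.39 (adjusted p = 0.00021). Smtn made up 86.8%, 81.8% and 80.1% of the smoothelins per kb in IP 1, 2 and 4, against 54.6%, 48.3%, 51.5% and 68.3% in unbound 1 to 4. Lmod2, the cardiac leiomodin, had -1.13 ± 1.59 (adjusted p = 0.604) at 0 to 0.477 CPM in each library, and Mylk2, Mylk3, Lmod3, Tmod4 and Smtnl1 did not pass the low-count filter.

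**Figure D2:**
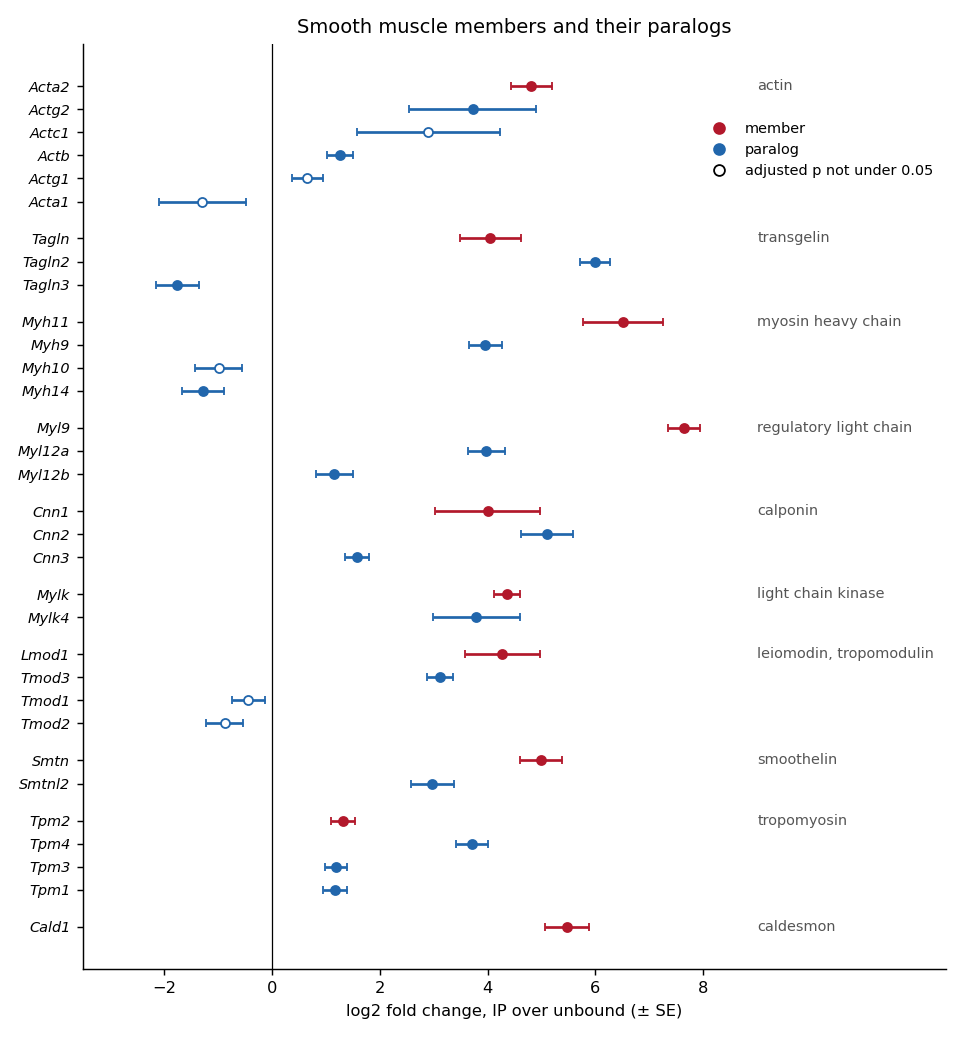
Log2 fold change of IP over unbound with its standard error for the members (red) and their tested paralogs (blue), by family, with open points for adjusted p not under 0.05. Myl9 (7.63) and Myh11 (6.51) lie right of their paralogs drawn, Tagln2 (5.99), Cnn2 (5.10) and Tpm4 (3.71) lie right of Tagln, Cnn1 and Tpm2, and Myl6, Myl6b and Lmod2 are not drawn.

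**Figure D3:**
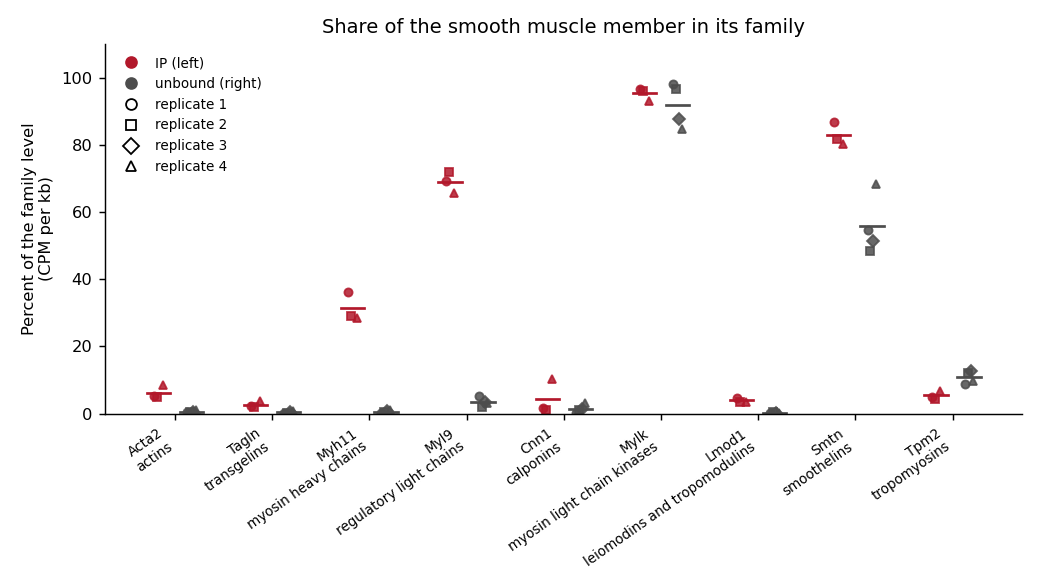
Share of the smooth muscle member in the summed CPM per kb of its family, in the 3 IP libraries (red, left) and the 4 unbound libraries (grey, right), with a bar at each group mean. The share of Myl9 averages 69.0% in IP and 3.46% in unbound, and that of Tpm2 averages 5.37% in IP and 10.9% in unbound.

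The members did not move together among the IP libraries. IP 4, in which Stard8 had 0.549 times its mean in IP 1 and IP 2, held 5.34 times as much Cnn1, 1.72 times as much Acta2, 1.35 times as much Tagln and 1.26 times as much Myh11 as that mean. The other way, Smtn stood at 0.602, Cald1 at 0.628, Myl9 at 0.704, Mylk at 0.752 and Tpm2 at 0.903 times the mean, and Lmod1 at 1.03 times. Of the members 40% were highest and 50% lowest in IP 4, against 39.1% and 41.3% of 14644 genes with a mean of at least 1 CPM in IP, so the counts alone do not set the members apart. Pericyte markers stood at a median of 0.768 times in IP 4 (9 of 12 lowest there), endothelial markers at 0.869 times, fibroblast markers at 1.23 times and neuron markers at 2.27 times. The part of these shifts in the members' results was not tested. Relative to Stard8, Acta2 CPM came to 0.366, 0.272 and 0.992 in IP 1, 2 and 4, and Myl9 CPM to 2.72, 2.36 and 3.24. Unbound 4 was also the highest unbound library for Acta2, Myh11, Cnn1, Lmod1, Cald1 and Myl9, at 2.16, 4.35, 3.87, 2.23, 1.68 and 1.23 times the mean of the other 3. For Tagln, unbound 4 was level with unbound 2 (2.59 CPM in each) and stood at 1.89 times the mean of the other 3. Smtn stood at 1.23, Mylk at 0.867 and Tpm2 at 0.828 times. The same ratio ran from 0.53 (Cldn5) to 5.04 (Tek) in endothelial markers and from 0.425 (Cox4i2) to 2.65 (Abcc9) in pericyte markers. In fibroblast markers it ran from 0.973 (Pdgfra) to 2.63 (Lum), so a rise in unbound 4 was not particular to the members.

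**Figure D4:**
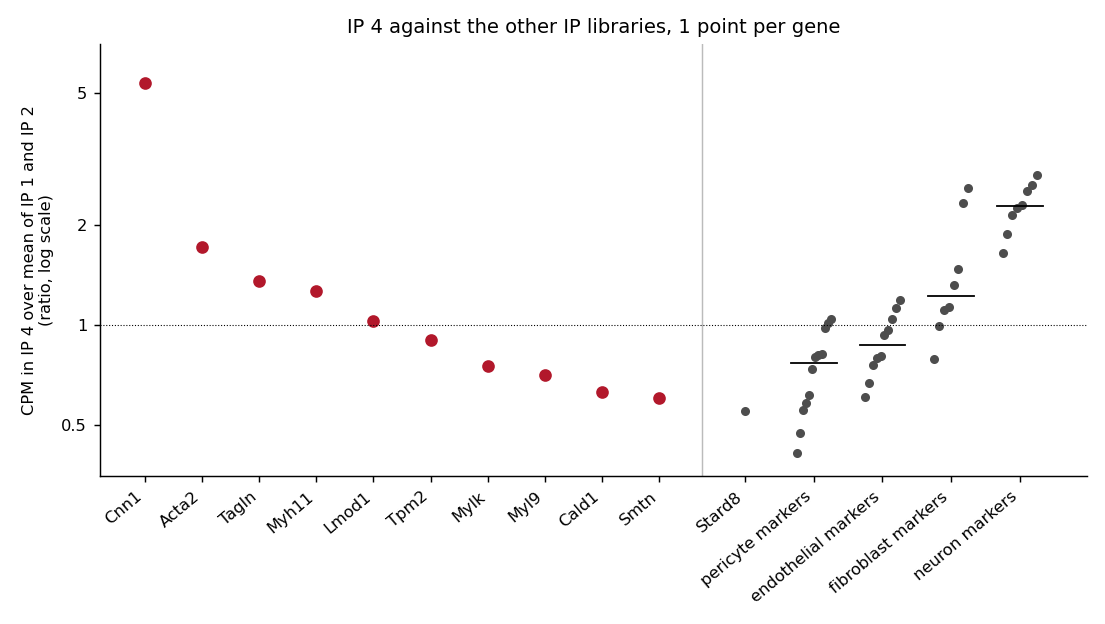
Ratio (log scale) of the CPM in IP 4 to the mean of IP 1 and IP 2, for each member (red) and for Stard8 and the genes of 4 marker lists (grey, bars at the medians). Cnn1 (5.34), Acta2 (1.72), Tagln (1.35) and Myh11 (1.26) lie above 1, while Smtn (0.602), Cald1 (0.628) and Myl9 (0.704) lie near Stard8 (0.549).

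The CArG box was looked for in promoters because several members are known to be driven through it. The RefSeq promoter table (GRCm38.p6, 250 bases before to 50 after each start) held 8 of the members, without Tagln and Myh11. Of its 32851 promoters 1.63% held a CArG box with a pure A/T core on either strand (the element reads alike on both), and 9.98% held one with at most 1 base of the core changed to G or C. The strict form occurred in Myl9, and the relaxed form occurred in Acta2 and Myl9, with 2 elements each. A promoter with 2 or more elements made up 0.822% of the table. Cald1 (both of its promoters), Cnn1, Lmod1, Mylk, Smtn and Tpm2 had no such letters in this window. Of the promoters of genes called higher in IP, 1.64% held the strict and 10.2% the relaxed form, against 1.37% and 8.9% of the promoters of tested genes. The 4 elements are shown because they lie before the genes of the regulatory light chain and of the defining actin, each with its flanks, 5′ to 3′ on the strand of the gene, with the element in capitals:
Acta2 at chr19:34255438-34255467 (minus strand), element from 84 bases before the start: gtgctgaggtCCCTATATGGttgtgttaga
Acta2 at chr19:34255388-34255417 (minus strand), element from 34 bases before the start: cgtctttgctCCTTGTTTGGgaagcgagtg
Myl9 at chr2:156775293-156775322 (plus strand), element from 161 bases before the start: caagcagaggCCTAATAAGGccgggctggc
Myl9 at chr2:156775355-156775384 (plus strand), element from 99 bases before the start: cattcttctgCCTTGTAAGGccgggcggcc
Both stretches of Acta2 also lie in an exon of a longer Acta2 transcript in GENCODE M21. A match is a description of letters, not a measured binding site.

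Regulators known from smooth muscle genes were measured as a list with the Notch pathway genes that act in mural cells. The list does not separate activators from repressors. Of 15 genes 11 were higher in IP and 0 lower, with a median log2 fold change of 1.24. Myocd, the smooth muscle coactivator, had 4.08, 5.37 and 5.03 CPM in IP 1, 2 and 4, against 0, 0.0172, 0.664 and 0.176 CPM in unbound 1 to 4 (log2 fold change 4.51 ± 1.15, adjusted p = 0.0105, and 6.25 without unbound 3). Srf, which is present in most cells, rose by 1.24 ± 0.22 (adjusted p = 0.00139). Klf4 had the largest log2 fold change of the list, at 6.17 ± 0.48 (adjusted p = 5.34e-06). Myocd, Srf and Klf4 were named after their values were seen. Mkl2, a relative of Myocd with the highest CPM of the list when averaged over all 7 libraries, rose by 1.13 ± 0.29 (adjusted p = 0.01), and within the first index sequence had 1.27 (adjusted p = 0.0887). The Notch target Heyl had the smallest p, with 498 ± 75.3 CPM in IP and 16.8 ± 2.76 CPM in unbound (log2 fold change 4.89 ± 0.26, adjusted p = 9.28e-07).

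The switch that turns contraction on and off was measured as a list. Of 20 genes for calmodulin, myosin phosphatase, its regulators and cyclic GMP signalling, 9 were higher and 2 lower in IP, with a median log2 fold change of 0.58. The shares over all genes tested were 20.5% higher and 18.9% lower. Arhgef1, a guanine nucleotide exchange factor, had the smallest p at 2.49 ± 0.24 (adjusted p = 2.04e-05). Calm2 and Calm3, which encode calmodulin, fell by 1.05 and 1.54 (adjusted p = 0.0128 and 0.00155). Calm2 was not called without IP 1 or IP 2 (adjusted p = 0.0693 and 0.0831), and neurons hold large amounts of calmodulin.

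Calcium handling genes were higher in 7 of 16 and lower in 3, with a median of 0.02. Of all genes tested 20.5% were higher and 18.9% lower, and the lower count of the list is near that last share. Casq2, a calcium-binding protein of the store, had 57.4, 42.3 and 31.8 CPM in IP 1, 2 and 4, against 2.99, 1.15, 1.06 and 1.64 CPM in unbound 1 to 4 (log2 fold change 4.67 ± 0.41, adjusted p = 1.33e-05). Kcnma1, the pore of the large calcium-activated potassium channel, which neurons also express, fell by 0.96 on the log2 scale (adjusted p = 0.0358). Kcnmb1, another subunit of that channel, had the largest rise of the list, at 6.13 ± 0.84 (adjusted p = 0.000274). It was named after its values were seen, and unbound 1 held 4 counts of it. The calcium pump Atp2a2, the highest of the list in CPM, had -0.75 ± 0.33 (adjusted p = 0.098). The calcium release channel Ryr2 fell by 1.56 (adjusted p = 0.00631) and the store sensor Stim1 by 0.74 (adjusted p = 0.0196). Kcnma1 lost its call without IP 1, IP 2, unbound 1, unbound 3 or unbound 4 (adjusted p = 0.105, 0.155, 0.0676, 0.0676 and 0.0919), and Stim1 without IP 2, IP 4 or unbound 3 (adjusted p = 0.11, 0.0512 and 0.052). Atp2a2 was called lower without IP 4 or unbound 2 (adjusted p = 0.0332 and 0.0242). Leaving out IP 2 left 1 lower gene, and leaving out unbound 2 gave 5.

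The cytoskeleton that anchors the filaments was higher in 12 of 18 genes and lower in 0, with a median of 1.73. Without unbound 2, 1 gene was lower. Vim, vimentin, had the smallest p, with 286 ± 12.2 CPM in IP and 11.1 ± 3.33 CPM in unbound (log2 fold change 4.69 ± 0.29, adjusted p = 1.51e-06). Csrp1, a LIM protein of smooth muscle that other brain cells also express, had the highest CPM of the list and 0.03 ± 0.24 (adjusted p = 0.929).

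Markers of the other cells around vessels were higher in IP as well, 12 of 12 for pericytes (median log2 fold change 6.74) and 10 of 10 for endothelium (median 6.99). Their summed levels were 3345 to 5069.6 CPM in IP against 31.0 to 37.4 CPM in unbound for pericytes, and 1343 to 1743 CPM in IP against 12.4 to 17.8 CPM in unbound for endothelium. Rgs5, which damps G protein signals and marks pericytes, had the smallest p of the first list at 7.99 ± 0.35 (adjusted p = 4.3e-07), and Ly6c1, an endothelial surface antigen, that of the second at 7.70 ± 0.34 (adjusted p = 4.3e-07). Macrophage and microglia markers were higher in 8 of 8 (median 4.25), fibroblast markers in 6 of 8 (median 2.10) and astrocyte markers in 5 of 8 (median 1.05). Dcn, a matrix proteoglycan of fibroblasts, rose by 2.61 ± 0.36 (adjusted p = 0.000268), and Gfap, the astrocyte filament, by 2.14 ± 0.21 (adjusted p = 2.26e-05). Lyve1, a hyaluronan receptor of vessel-associated macrophages, rose by 8.5 ± 0.49 (adjusted p = 1.36e-06), and Csf1r, the receptor for the macrophage growth factor, by 3.96 ± 0.29 (adjusted p = 4.12e-06). Igf2, a growth factor of meningeal fibroblasts, rose by 1.36 ± 0.28 (adjusted p = 0.00375), while Aldoc, an astrocyte aldolase, had 0.61 ± 0.23 (adjusted p = 0.0603, and 0.0423 without unbound 2), and passed in 5 other alternatives (adjusted p = 0.0189 to 0.0463). Summed levels were 725 to 739 CPM in IP and 29.4 to 52.1 CPM in unbound for macrophages and microglia, 215 to 302 CPM in IP and 75.4 to 130.4 CPM in unbound for fibroblasts, and 2094 to 2813 CPM in IP and 1010.2 to 1688 CPM in unbound for astrocytes. Several members, among them Cald1, Myl9, Mylk and Tpm2, are known in pericytes and other non-muscle cells too, and which cells the members' RNA came from was not tested.

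Genes of striated muscle stayed low, at a sum of 12.1 to 17.5 CPM for 12 markers in IP and 25.5 to 30.6 CPM in unbound. Of the 7 that were tested, 1 was higher and 3 lower. The higher one was Mylpf, a light chain of fast skeletal muscle, at 2.42 ± 0.54 (adjusted p = 0.00544), from 7.51, 3.85 and 3.11 CPM in IP 1, 2 and 4 against 0.547 to 1.32 CPM in unbound. Titin, Ttn, fell by 2.95 (adjusted p = 0.00254). Leaving out IP 2, 2 genes were higher. Oligodendrocyte markers were lower in 8 of 8 (median -2.56), with Mbp at -2.70 ± 0.33 (adjusted p = 0.000121), and summed to 877 to 1642 CPM in IP and 5244 to 7161 CPM in unbound. Of the neuron markers (median -1.75), Stmn2 had -1.98 ± 0.28 (adjusted p = 0.000323) and Snap25 had -1.78 ± 0.38 (adjusted p = 0.00397).

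**Figure D5:**
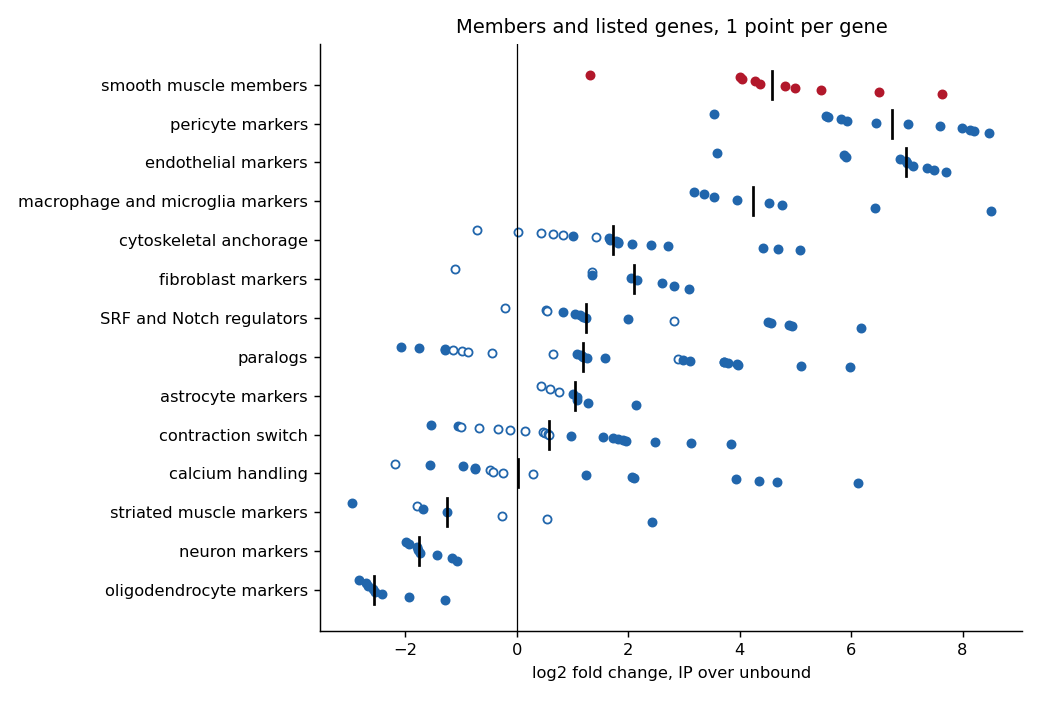
Log2 fold change of IP over unbound for each tested gene (1 point) of the members (red) and the other lists (blue), with open points for adjusted p not under 0.05 and a bar at each median. The members' median of 4.59 lies below those of pericyte (6.74) and endothelial (6.99) markers, near that of macrophage and microglia markers (4.25), and above that of neuron markers (-1.75).

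The genes outside the list whose pattern was most like the members' were found by the root mean square distance from the median member over the 7 libraries, among genes with a mean of at least 5 CPM and leaving out provisional names (Gm and Rik genes), on log2(CPM + 0.5) values centred on each gene's mean. They were Dab2 (0.152), Vim (0.154), B2m (0.158), Cybb (0.159) and Cmah (0.198). Dab2 had 349.8 ± 39.3 CPM in IP and 15.6 ± 4.21 CPM in unbound, a log2 fold change of 4.49 ± 0.28. Vim and B2m had 4.69 and 4.48, beside the members' median of 4.59. Cybb and Cmah had larger log2 fold changes, 5.41 and 6.99, from 0.557 and 0.0916 CPM in unbound. At such low levels the added 0.5 CPM narrows the gap between the groups, and with it the distance. By the same measure Acta2 (0.298) and Mylk (0.392) were the members nearest to their own median, and Myl9 (1.52) and Tpm2 (1.59) the farthest. The distance is dominated by the gap between the groups, which 20.5% of genes share in direction.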

How the data were processed

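The deposited files hold raw counts of reads for each gene symbol. The authors used STAR 2.0.0e with the mm10 build and HTSeq, per the submitters' processing notes. Neither the annotation nor the strand setting is stated in the sources used here. The 6 rows that name no gene were left out: reads outside genes and ambiguous reads (shares per group in the text) and multiply aligned reads, 33.0% to 39.6% of IP files and 17.6% to 34.6% of unbound files.

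The test was edgeR 4.0.16 under R 4.3.3 (filterByExpr, TMM, robust quasi-likelihood, Benjamini-Hochberg at 0.05) over 17654 genes. CPM and fold changes were computed here, and floors cover counting error only. No pair of libraries of a group agreed within sampling noise (chi-square per degree of freedom at least 82.6). GENCODE M21 (GRCm38, also called mm10) gave coordinates and exon lengths, and 88.4% of tested symbols matched it. DESeq2 1.42.0 and limma 3.58.1 served as alternatives. The procedure was tested on simulated counts. The CArG box was searched strictly first, and the relaxed form was added afterwards.

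Members and gene lists were chosen with earlier results of these data known. The text names every member and paralog, and of each other list the gene with the smallest p, the one with the highest mean CPM over all libraries and those called against the majority. Some genes this rule picks are not reported here. Whether same-numbered libraries pair cannot be decided from deviations from the means of such small groups. Those deviations correlated at -0.0531, 0.0599 and 0.24 for replicates 1, 2 and 4. IP 2 and IP 4 correlated best with the unbound library of their own number, and IP 1 with unbound 2 (0.309). The main fit used no pairing.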

Additional observations from a re-analysis of the deposited data

How the results depend on the processing

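Results were recomputed with RLE or no scaling factors, without a low-count filter or with 5 CPM in 3 libraries, with DESeq2 and limma voom, with a replicate block or an index covariate, within each index sequence, without the 10 most abundant genes, and leaving out each library. The members' log2 fold changes stayed positive in all 179 values, and 177 stayed on the same side of the threshold. Both exceptions were Cnn1, at 2.72 without IP 4 and 4.14 within the first index sequence. The 5 CPM filter removed Cnn1 and left 9 members. The median over all genes was -0.10, and 0.01 with no scaling factor. With the replicate block 10 members were called, Cnn1 at 4.31 (adjusted p = 0.00187), while Actg2 (3.09, adjusted p = 0.147) and Stim1 (-0.73, adjusted p = 0.0791) were not called and Actg1 was (0.90, adjusted p = 0.0476). Over all 63 genes named by rule 43 of 1121 values lost a call, 20 gained one and 0 reversed. Within the first index sequence 2190 genes were higher and 1650 lower, against 3622 and 3328 with all libraries, and there 2 astrocyte and 0 striated muscle markers were higher and 1 striated muscle marker lower. Within the second, 8 astrocyte and 2 striated muscle markers were higher. With no scaling factor 1 calcium handling gene was lower. Striated muscle markers were higher in 2 cases without the filter and 0 with 5 CPM. DESeq2 and the replicate block each called 1 fibroblast marker lower. Leaving out single libraries gave 1751 to 3632 lower genes, 2 to 5 lower paralogs, 1 to 2 lower contraction switch genes, 1 to 5 lower calcium handling genes, 0 to 1 lower anchorage genes, 0 to 1 lower fibroblast markers, 4 to 8 lower neuron markers and 1 to 2 higher striated muscle markers. The causes were not tested. Cnn1, Lmod1 and Myh11 had few counts in unbound 1, at 2, 4 and 17, although that library held the most counts in genes (76114634). Why they were so low there was not tested.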
